A study of Rousettus aegyptiacus with 32 samples.

Results

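Open chromatin in the brain of Rousettus aegyptiacus, the Egyptian fruit bat, was compared with that in peripheral tissues. The comparison took all 20 ATAC-seq libraries of the study out of its 32 samples: 14 from brain and 6 from liver, muscle and testis. The other 12 samples were RNA-seq libraries and were not used here. Libraries were assigned to brain or periphery by their labelled tissue, and no measured value entered that choice.

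All samples came from adult males, and the ATAC-seq libraries came from 2 animals, bat 1 and bat 3. Each animal gave 1 library per tissue. Among the brain tissues, 4 were cortical: the premotor cortex (PreM), secondary auditory cortex (2A) and, within the primary motor cortex, an orofacial region (ofM1) and a wing region (wM1). The caudate nucleus and putamen form the striatum, and the cerebellum completes the set. The peripheral tissues were liver, pectoralis muscle and testis. No treatment or genetic change is labelled, and ages beyond adult are not given. The samples were bulk tissue, so more cells of a type and more accessibility per cell cannot be told apart as the source of a stronger peak. Tissue identity was not checked against marker genes, because the peaks could not be placed at genes here.

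ATAC-seq uses the Tn5 transposase to insert sequencing adapters into DNA that is not wrapped in nucleosomes, so peaks of insertions mark accessible promoters, enhancers and other regulatory sites. Promoters of genes that every cell uses tend to be open in most tissues, whereas enhancers are more often open in particular cell types. The cortex and striatum are rich in excitatory projection neurons and inhibitory spiny neurons respectively, granule cells dominate the cerebellum, and all of these tissues also hold glia and vessels.

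For each library the authors deposited a list of peaks, each with a fold enrichment and a -log10 p from the peak caller. Rows with the same interval were joined, and the 50000 intervals with the highest -log10 p in each library were compared, so that all lists had the same length. Rank 1 is the strongest interval of a library. Folds and p values are the caller's own, and the read depth behind them is unknown. Sharing was measured with the Jaccard index, the number of bases covered by both lists divided by the bases covered by either.

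Enrichment differed between the sides. The median fold of the 50000 intervals was 6.94 to 12.8 in the 14 brain libraries (median 8.71). It was 3.70 and 6.08 in muscle of bats 1 and 3, 3.59 and 4.12 in testis, and 2.23 and 3.51 in liver. Every brain library was above every peripheral library. The weakest of the 50000 intervals had a -log10 p of 16.3 to 195.6 in brain and 4.23 to 9.09 in the periphery. The livers also stood apart from each other: they shared a Jaccard index of 0.087, where the 9 other tissues gave 0.437 to 0.716 between the animals. The comparisons of brain with periphery are therefore given with and without the liver libraries.

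Brain tissues shared more open chromatin with each other than with peripheral tissues. The mean Jaccard index was 0.439 ± 0.148 (SD over 21 pairs of brain tissues) within brain and 0.194 ± 0.0732 (SD over 21 pairs) between brain and periphery. The difference of 0.245 had p = 0.0167 in an exact 2-sided permutation of the labels over the 10 tissues, which is the smallest p that 7 against 3 tissues allow. Adjusted over the 3 tests made (sharing, width and summits), it was also 0.0167. Without liver, brain and peripheral tissues shared 0.240 ± 0.0343 (SD over 14 pairs) and the difference was 0.199. The exact permutation p was then 0.0556, again the smallest that 7 against 2 tissues allow. With labels permuted within each animal, an alternative chosen after seeing the data, the exact p without liver was 0.00154 (adjusted 0.00231). It treats the 2 libraries of a tissue as separate units.

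**Figure D1:**
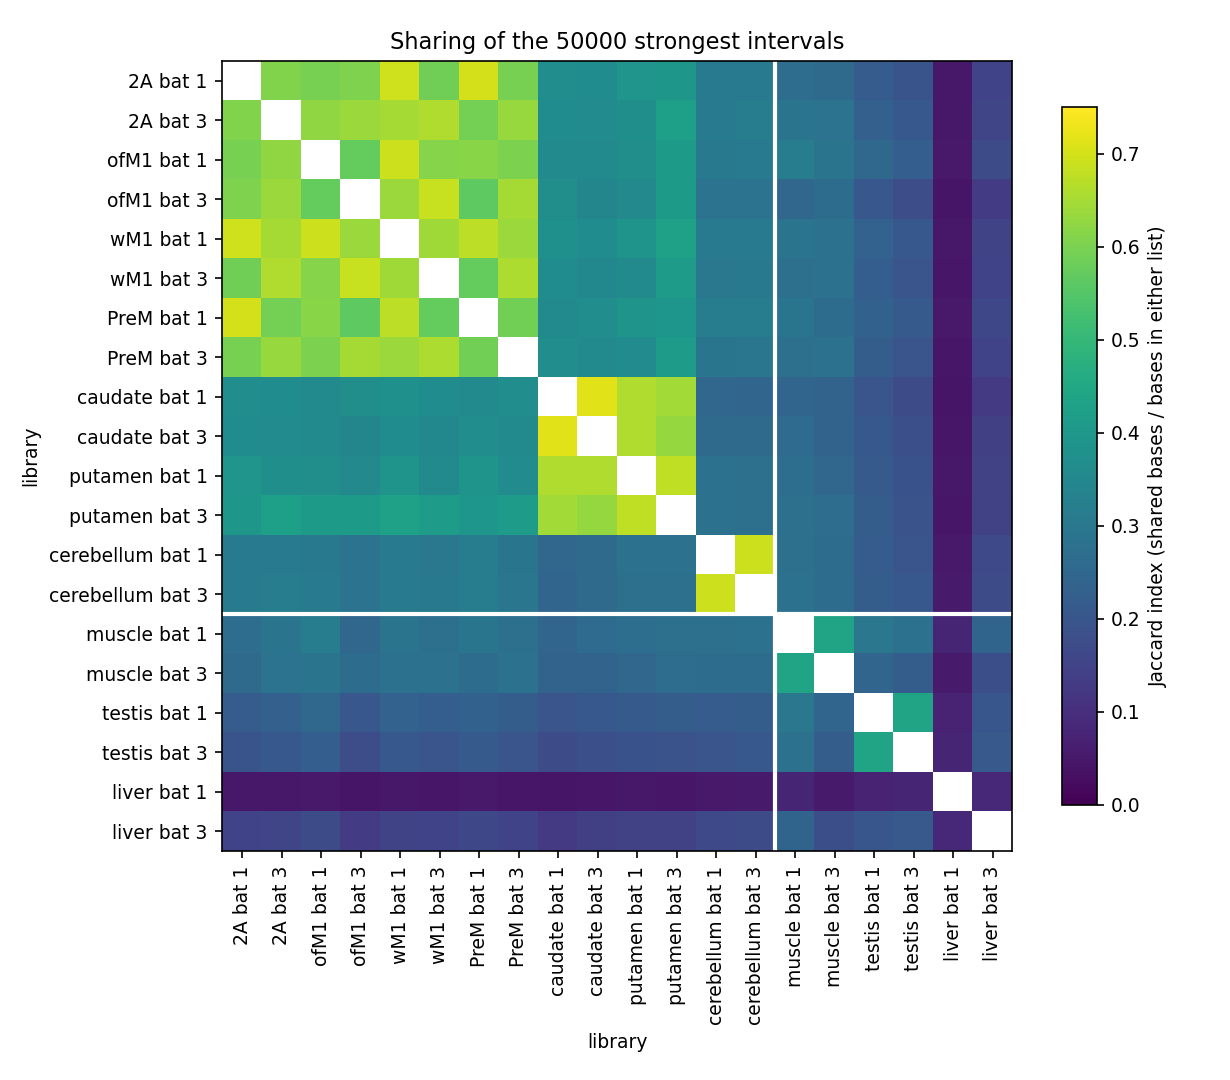
Jaccard index between the lists of the 50000 strongest intervals for each pair of the 20 libraries, with white lines between brain and peripheral libraries and the diagonal left blank. Cortex, striatum and cerebellum form blocks along the diagonal (0.564 and above within each), and the liver of bat 1 shares little with any library.

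The brain was not a single block. Different cortical areas shared 0.633 on average (0.564 to 0.703 over 24 library pairs). Within an animal they shared 0.659 (12 pairs) and between animals 0.607 (12 pairs), while the same area shared 0.604 between animals (0.573 to 0.643 over 4 pairs). Between animals, the ranges for different areas and for the same area overlapped. Caudate and putamen shared 0.650 (0.632 to 0.661 over 4 pairs). Cortex and striatum shared 0.377 (0.344 to 0.428 over 32 pairs), and cortex and cerebellum 0.304 (0.286 to 0.318 over 16 pairs). The ranges of these groups of pairs did not overlap, except that areas within cortex and nuclei within striatum were alike.

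The cerebellum stood nearly as far from the other brain tissues as muscle did. It shared 0.266 with striatum (0.243 to 0.281 over 8 library pairs) and 0.272 with muscle (0.265 to 0.282 over 4 pairs), and these ranges overlapped. Cortex shared 0.279 with muscle (0.247 to 0.314 over 16 pairs), which also overlapped its sharing with cerebellum. Testis was lower, at 0.211 with cerebellum (0.198 to 0.222 over 4 pairs), 0.215 with cortex and 0.196 with striatum. Muscle and testis shared 0.262 with each other (0.222 to 0.297 over 4 pairs). With cortex, striatum and cerebellum as single values, brain divisions shared 0.316 on average with each other and 0.193 with the peripheral tissues. That difference of 0.123 had p = 0.1 in the exact permutation, the smallest that 3 against 3 allow. Without liver, the brain divisions shared 0.238 with muscle and testis, and the difference was 0.0776 (exact permutation p = 0.2, the smallest that 3 against 2 allow). The larger difference over 7 brain tissues thus includes the high sharing within cortex and within striatum.

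Sharing between brain and periphery hardly differed within and between animals. The mean Jaccard index was 0.194 over 42 library pairs from the same bat and 0.193 over 42 pairs from different bats. Without liver the values were 0.242 and 0.239 over 28 pairs each.

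Counted by interval rather than by base, 83.3% of a cortical list was found on average in another cortical list (77.9 to 88.7%). The share was 58.9% in a striatal list, 52.6% in a cerebellar list, 47.8% in muscle and 38.7% in testis. For a cerebellar list the shares were 53.4% in cortex, 48.5% in striatum, 47.5% in muscle and 37.4% in testis. About as many of the strong cerebellar intervals were thus found in muscle as in striatum.

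Brain intervals were wider. The median width was 723 to 1066 bases in the 14 brain libraries (median 874). The lowest were the cerebellum of bat 3 at 723, ofM1 of bat 1 at 742 and the cerebellum of bat 1 at 767. In muscle it was 397 bases in bat 1 and 721 in bat 3, in testis 511 and 408, and in liver 213 and 261. No peripheral library reached the brain range, although muscle of bat 3 came within 2 bases of the cerebellum of the same animal. Over tissues, the median width was 869 ± 61.9 bases in brain (SD, n = 7) and 419 ± 165 in the periphery (SD, n = 3), a difference of 450 bases with p = 0.0167 (adjusted 0.0167) in the exact permutation test. Without liver the difference was 359 bases, with an exact permutation p of 0.0556. These p-values are the smallest that their designs allow. With 1 value per brain division the difference was 427 bases (exact permutation p = 0.1, again the smallest possible). Fold enrichment and width were both higher in brain, and the part of enrichment in the width difference was not tested. Among brain libraries, the widest, ofM1 of bat 3, had a median fold of 7.87. The brain library with the highest fold, caudate of bat 3 (12.8), had a median width of 855 bases. Among peripheral libraries, muscle of bat 3 was highest in both fold (6.08) and width, and liver of bat 1 was lowest in both (fold 2.23). Testis of bat 1 was wider than testis of bat 3 at a lower fold (3.59 against 4.12).

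**Figure D2:**
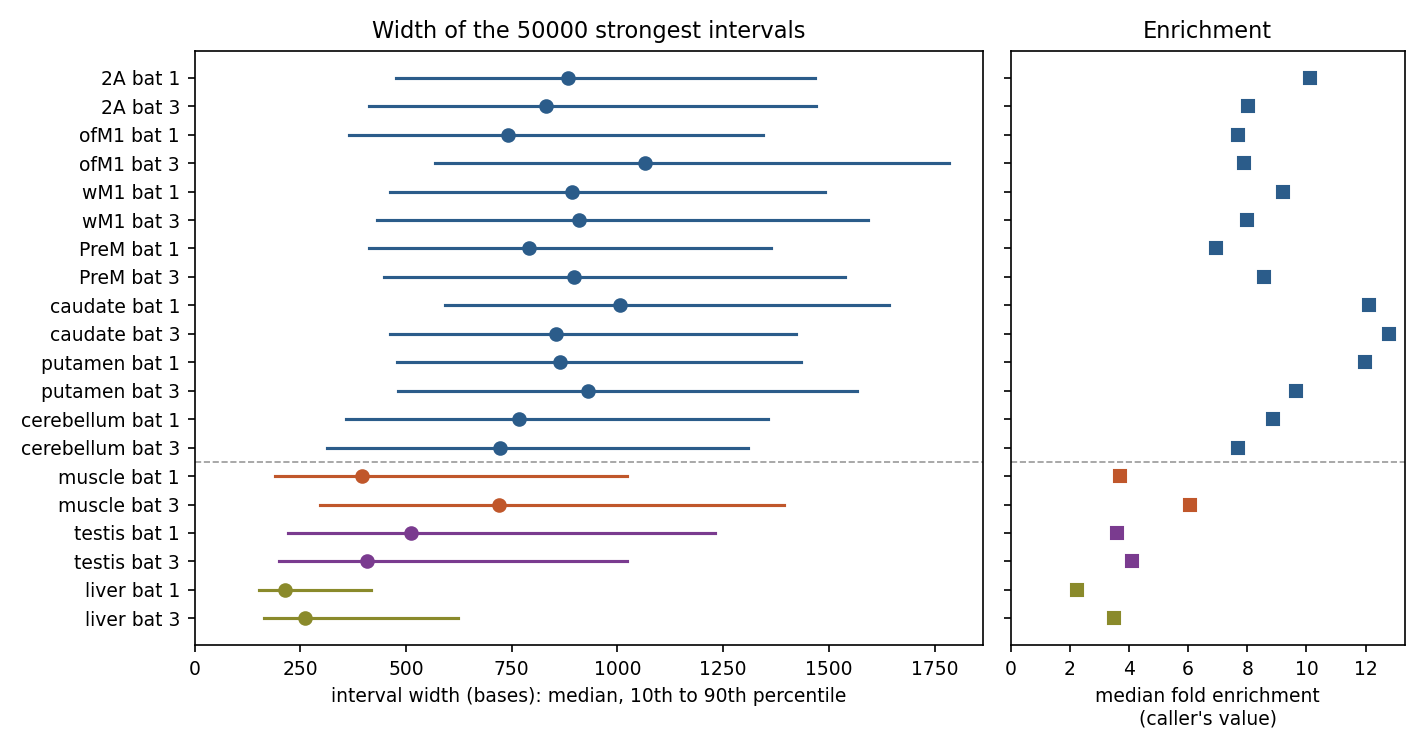
Left, interval width in bases for the 50000 strongest intervals of each library, with the median as a point and the 10th to 90th percentile as a line. Right, median fold enrichment from the caller. Brain libraries (blue) lie above all peripheral ones (muscle orange, testis purple, liver olive) in both medians, with 723 to 1066 bases against 213 to 721.

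The width difference was smaller among the strongest intervals. Over the 5000 strongest of each library, the median width was 1027 to 1376 bases in brain. Muscle had 1003 and 1236.5 bases and testis 1039 and 896, so muscle of bat 3 and testis of bat 1 lay within the brain range. Liver had 308 and 605 bases. Total coverage by the 50000 intervals was 39.0 to 56.5 Mb in brain, 25.6 and 39.9 Mb in muscle, 26.0 to 31.7 Mb in testis and 13.0 and 16.9 Mb in liver.

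Intervals with more than 1 summit, meaning several local maxima of insertion in a stretch called as 1 peak, were more frequent in brain. They made up 63.5 to 78.2% of the 50000 intervals in brain libraries. The share was 38.5% and 69.8% in muscle of bats 1 and 3, 47.9% and 36.4% in testis, and 10.9% and 16.7% in liver. Muscle of bat 3 lay within the brain range. It also had the widest intervals and the highest fold of the peripheral libraries, and liver of bat 1 was lowest in each. The part of width and enrichment in the summit difference was not tested. Over tissues the shares were 69.4% ± 2.54 (SD, n = 7) and 36.7% ± 20.7 (SD, n = 3), with p = 0.0167 (adjusted 0.0167) in the exact permutation test. The difference of 32.8 percentage points fell to 21.3 without liver (exact permutation p = 0.0556). With 1 value per brain division it was 31.8 points (exact permutation p = 0.1). Each of these p-values is the smallest that its design allows.

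The lists were then merged into 230789 regions, joining intervals that overlapped by at least 1 base. Of these, 65134 (28.2%) held strong intervals of brain libraries only, 114249 (49.5%) of peripheral libraries only and 51406 (22.3%) of both. The peripheral total was mostly private: 91933 regions were in a single peripheral list, and 52621 of those were in 1 liver list. Regions found on both sides had a median width of 1215 bases, against 891 for brain only and 281 for periphery only. A merged region spans all its intervals, so regions held by more lists tend to be wider by construction. These widths therefore cannot show that shared sites are wider in themselves. The 91933 regions of a single peripheral list had a median of 240 bases. Without liver the medians were 1239 for both, 901 for brain only and 424 for muscle or testis only. Without liver there were 177405 regions, of which 71306 (40.2%) were in brain only, 60857 (34.3%) in muscle or testis only and 45242 (25.5%) in both.

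**Figure D3:**
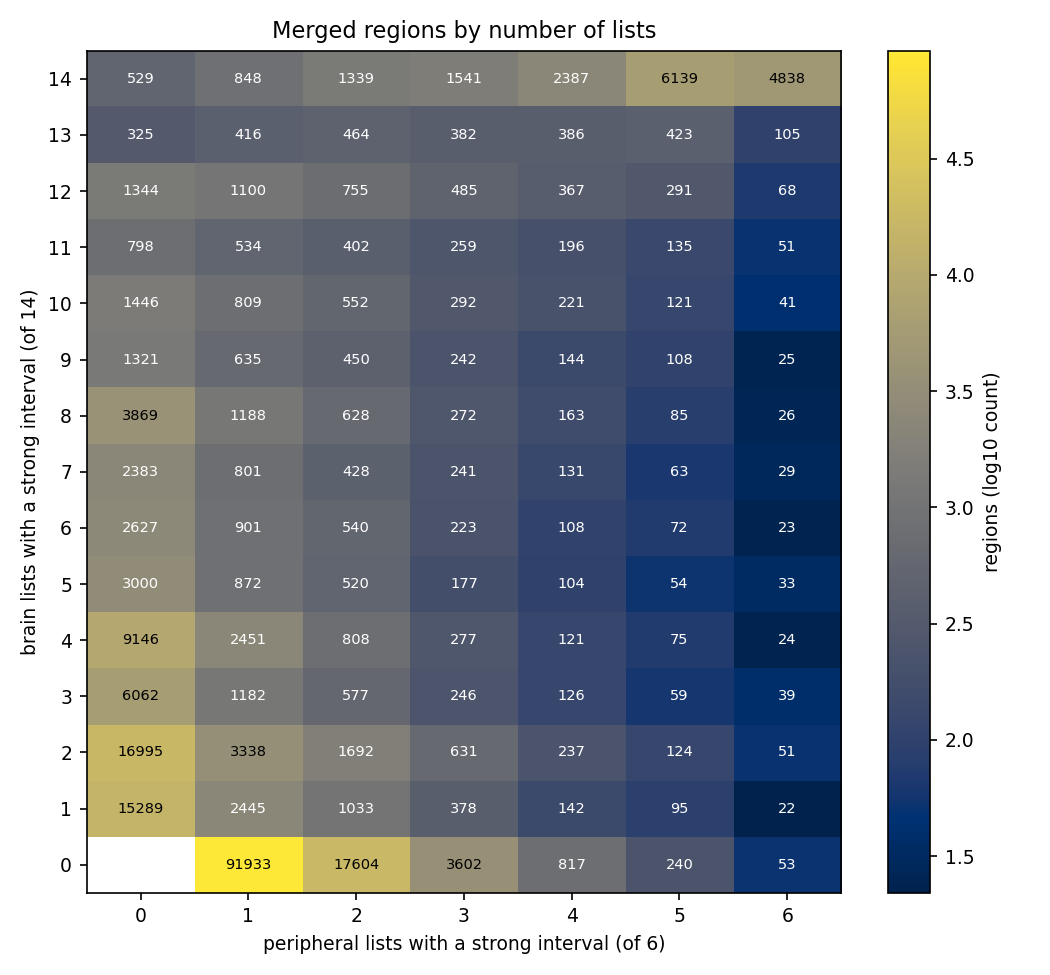
Number of merged regions by how many of the 14 brain lists (vertical) and 6 peripheral lists (horizontal) hold a strong interval there, with color on a log10 scale. The top row holds regions strong in every brain library, from 529 in no peripheral list to 4838 in all 6, and the largest cell is the 91933 regions of a single peripheral list.

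Most sites that were strong throughout the brain were also in at least 1 peripheral list, but fewer were in all of them. All 14 brain lists shared 17621 regions, 7.64% of all merged regions. Of these, 17092 (97.0%) were in at least 1 peripheral list. In all 6 peripheral lists, and so in all 20 lists, were 4838, which is 27.5% of the 17621 and 2.1% of all regions. Muscle of bats 1 and 3 held 91.0% and 85.9% of the 17621 regions, testis 81.6% and 75.6%, and liver 31.8% and 73.7%. Of the 5428 regions in all 6 peripheral lists, 89.1% were in all 14 brain lists. Without liver, 17619 regions (9.93%) were complete in brain, and 11925 regions were in all 18 lists (6.72% of the regions merged without liver), which is 67.7% of the regions complete in brain and 77.6% of the 15377 complete in muscle and testis.

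Regions complete in brain and missing from every peripheral list numbered 529, or 0.229% of all merged regions. Weaker peripheral peaks were common at them: 427 of the 529 overlapped a deposited peripheral peak at some rank, 343 in muscle, 267 in testis and 175 in liver. The remaining 102 regions (0.0442%) had no peripheral peak of any rank. In the other direction, 53 regions (0.023%) were in all 6 peripheral lists and no brain list, and 2 of these (0.000867%) had no brain peak of any rank. Without liver, 681 regions (0.384%) were complete in brain and in no muscle or testis list, and 140 (0.0789%) had no peak of any rank there. In the other direction there were 371 (0.209%) and 35 (0.0197%). Absence at any rank was judged to different depths, since brain lists ended at a -log10 p of 3.30 to 12.3 and peripheral ones at 2.00 to 2.80.

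The uneven number of libraries affects these counts, as a region has to be strong in 14 libraries on the brain side and in 6 or 4 outside it. With 1 cortical tissue, 1 striatal tissue and cerebellum against the 3 peripheral tissues, each of the 8 possible choices gave more than 529 brain-only regions, up to 902, and 58 to 104 peripheral-only regions. Without liver they gave 902 to 1147 and 447 to 565. Leaving out the cerebellum raised the brain-only count to 1729, and using the libraries of 1 animal alone raised it to 1365 (bat 1) and 1774 (bat 3).

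Regions of the 529 were of middling strength. Their median rank was 20591 to 27925 in the brain libraries. For all 17621 regions complete in brain it was 9311 to 13266, and for those in all 20 lists 3478.5 to 5340. Between 0.189% and 2.65% of the 529 were among the 5000 strongest intervals of a brain library, the highest share being in the cerebellum of bat 1. For the regions in all 20 lists the share was 48.1 to 62.2%. Without liver, the median rank in brain libraries was 20495 to 27355 for the 681 brain-only regions and 6208 to 10341 for the regions in all 18 lists. The best of the 14 ranks was in a cortical library for 295 of the 529, in a striatal library for 120 and in a cerebellar library for 114. As cortex had 8 libraries, striatum 4 and cerebellum 2, the best median rank was also counted, and it was in cortex for 213, in striatum for 140 and in cerebellum for 176.

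Among the brain regions without any peripheral peak, the one whose worst brain rank was best was NW_023416284.1:159545729-159546703 (975 bases). It ranked from 6955 in PreM of bat 1 to 22480 in caudate of bat 1 (median 11380.5), with a fold of 10.8 to 22.9 (median 15.4). Its lowest folds were those of the cerebellum of both animals. Next was NW_023416295.1:44544865-44545512 (648 bases), ranked 11898 to 24632 (median 18173.5), with folds of 8.13 to 14.5. Those at NW_023416308.1:63933518-63934713 and NW_023416312.1:16429936-16431148 had worst brain ranks of 27414 and 28097 and median folds of 14.6 and 12.4. These 4 led the 102 regions in that order, and which genes lie nearby was not analysed here.

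On the peripheral side, NW_023416284.1:157516443-157518086 (1644 bases) had no brain peak of any rank in the deposited lists, which are cut at their row limit in brain. It ranked 14660 and 4728 in muscle, 18674 and 11025 in testis, and 2059 and 35694 in liver, with folds of 2.92 to 10.4. Ranks are relative to each library. Rank 2059 in liver of bat 1 went with a fold of 2.92 and a -log10 p of 8.76. Rank 14660 in muscle of bat 1 went with 5.30 and 17.7. The caudate list of bat 1 ended at 12.3, so a peak of 8.76 would not be listed there. The other region without a deposited brain peak, NW_023416308.1:49372616-49373368, had folds of only 1.64 to 2.55. Without liver, the leading regions of muscle and testis with no deposited brain peak were NW_023416311.1:103561651-103562357 and NW_023416307.1:87405695-87407063. The former ranked 13886 and 9091 in muscle and 11824 and 6384 in testis, with folds of 4.99 to 8.38. The latter ranked 12182 and 2170 in muscle and 14807 and 12296 in testis, with folds of 4.89 to 10.6, the highest in muscle of bat 3.

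Sharing fell with rank, and it fell faster outside the brain. Of the 1000 strongest intervals of a cortical library, 99.9% were found on average in the lists of other brain tissues and 97.5% in peripheral lists. At ranks 10001 to 20000 the shares were 85.4% and 45.3%, and at ranks 20001 to 50000 they were 55.6% and 19.96%. In the muscle and testis lists alone, the shares at these 3 steps were 99.9%, 54.2% and 23.9%. The other brain tissues of a cortical library include the other cortical areas. Striatal libraries, with 1 neighbouring nucleus, had 99.7% of their 1000 strongest intervals in other brain tissues and 97.8% in the periphery, and at ranks 20001 to 50000 they had 48.3% and 21.4%. In muscle and testis alone these peripheral shares were 99.6% and 25.7%. Lists of the same tissue in the other animal held more at those ranks, 70.6% for cortical and 80.2% for striatal intervals. In the cerebellum, which has no such neighbour, 93.5% of the 1000 strongest intervals were found in other brain tissues, 89.2% in the periphery and 91.7% in muscle and testis alone. At ranks 20001 to 50000, 39.4% of the cerebellar intervals were found in other brain tissues, 35.1% in muscle and 24.5% in testis. The other animal's cerebellum held 79.4% of them.

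**Figure D4:**
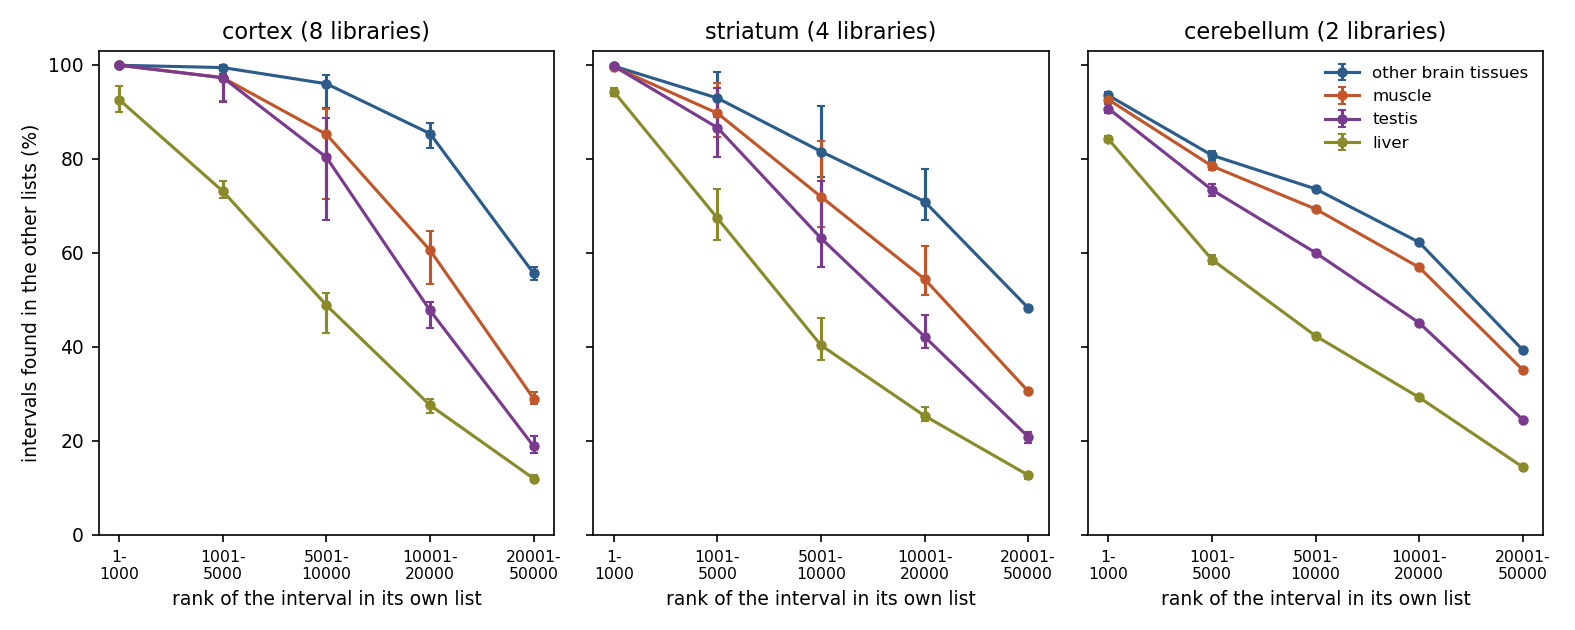
Share of intervals, by their rank in their own library, found in the lists of other brain tissues, muscle, testis and liver, as the mean over the libraries of a division with bars from the lowest to the highest library. All lines start high and fall with rank; in cerebellum the lines for other brain tissues and muscle stay close, ending at 39.4% and 35.1%.

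The strongest peripheral intervals were also found in brain, least so in liver of bat 1. Of the 1000 strongest intervals, 97.5% and 92.4% in muscle of bats 1 and 3, 96.4% and 97.4% in testis and 92.7% in liver of bat 3 were found on average in brain lists. In liver of bat 1 the share was 51.8%. At ranks 1001 to 5000 the animals differed more, with 97.1% in muscle of bat 1 and 74.8% in muscle of bat 3, whereas testis gave 96.5% and 95.9%. The muscle intervals of bat 3 were not private to that library, as 99.4% of them were in muscle of bat 1.

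Intervals found everywhere were wider than brain-only ones of like strength. At ranks 10001 to 20000, intervals that overlapped all 20 lists were wider than intervals that overlapped all 14 brain lists and no peripheral list, by their medians, in 14 of 14 brain libraries. Their median widths were 1108 to 1690.5 bases and 634 to 977.5 bases, and the difference had a median of 541.5 bases. A wide interval has more bases with which to overlap others. With overlap judged on windows of 500 bases at the summits, the difference was still found in 14 of 14 libraries, with a median of 413.5 bases. Without liver it was 285 bases by interval and 251.75 by summit window. The 14 libraries share their regions and come from 2 animals, so these are counts and not a test.

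Rank order among shared regions was by median more alike between brain tissues than between the sides, but not for every pair of divisions. Over the 4838 regions in all 20 lists, Spearman correlations of rank between libraries of different brain tissues had a median of 0.859 (0.604 to 0.976 over 84 pairs). Between brain and peripheral libraries the median was 0.656 (0.333 to 0.823 over 84 pairs). Cortex and striatum had a median of 0.863 (32 pairs) and cortex and cerebellum 0.676 (0.604 to 0.779 over 16 pairs). Cortex had 0.753 with testis (0.680 to 0.823 over 16 pairs) and 0.598 with muscle (0.453 to 0.755 over 16 pairs). By median, cortex was thus closer to testis than to cerebellum, with overlapping ranges. Striatum had 0.737 with cerebellum and 0.727 with testis (8 pairs each). The muscle values split by animal. Cortex had 0.655 to 0.755 with muscle of bat 1 and 0.453 to 0.540 with muscle of bat 3. The pooled median of 0.598 lies between these ranges, and the testis range overlapped only that of muscle of bat 1. By rank order of shared regions, the pooled median for cortex was higher with testis than with muscle, in part through muscle of bat 3. By bases shared the mean was higher with muscle, and the ranges over library pairs overlapped in both. Over the 11925 regions of the 18 lists without liver, the medians were 0.818 within brain and 0.635 between brain and muscle or testis. Cortex then had 0.596 with cerebellum and 0.685 with testis. The points of each correlation are regions, which share libraries, so no p is given.

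Regions that were ranked higher in every library of one side were few. In 44 of the 4838 regions (0.909%) every brain rank was above every peripheral rank, with median ranks of 367 in brain and 1484.5 in the periphery. In 69 regions (1.43%) every peripheral rank was above every brain rank, with median ranks of 4525 in the periphery and 15540 in brain. The balance turned with the list length, to 31 and 16 regions over the 20000 strongest intervals. Without liver there were 241 (2.02%) and 412 (3.45%) among the 11925 regions. The median ranks of the 241 were 4178.5 in brain and 13671 in muscle and testis, and those of the 412 were 5176.75 in muscle and testis and 15206.5 in brain.

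The share of brain-complete regions that no peripheral list held varied by scaffold. On the 18 scaffolds with the most intervals, the share of brain-complete regions in no peripheral list was 1.33 to 3.69% on 17, and 8.33% (37 of 444) on NW_023416312.1, which was singled out after its values were seen.

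**Figure D5:**
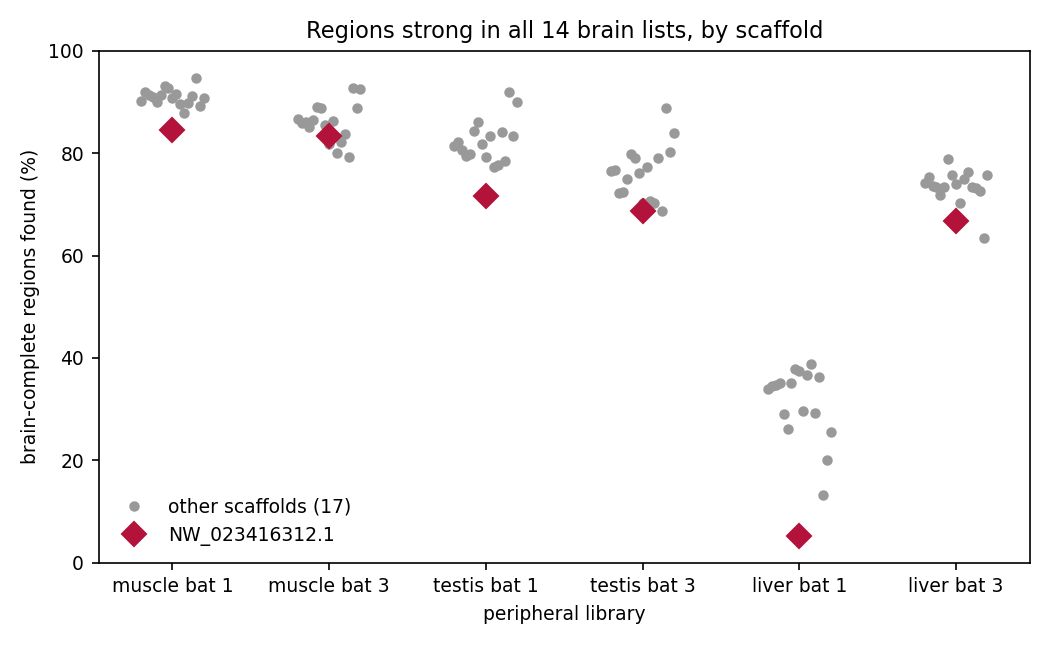
Share of the regions complete in brain that each peripheral library also held, for NW_023416312.1 (red diamond) and 17 other scaffolds (grey points). In muscle, testis and liver of bat 1 the diamond lies below all other scaffolds (84.5%, 71.6% and 5.18%), and in bat 3 it lies low within their range (83.3%, 68.7% and 66.7%), in testis level with the lowest.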

How the data were processed

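ATAC-seq libraries were made from nuclei of cryopreserved bulk tissue, per the labels' protocols. Bowtie2 and MACS2 are named in the submitters' processing notes. No genome build is named in the sources used here. The authors deposited 1 peak list per library, with fold enrichment (a ratio to the caller's background), -log10 p and -log10 q per peak. Of the 20 lists, 15 hold 300000 rows. Rows sharing an interval were joined, keeping the highest fold and -log10 p, and the 50000 intervals with the highest -log10 p were used. A region is a union of intervals overlapping by at least 1 base, and coordinates count from 1. Sharing, width and summits were tested by exact 2-sided permutation over 10 tissues, each the mean of both animals, with Benjamini-Hochberg adjustment over 3 tests and a threshold of 0.05 (Python 3.11.15, numpy 2.4.6, scipy 1.17.1). Libraries with the same animal number come from the same animal; brain library pairs of different tissues had a mean Jaccard index of 0.447 within animals and 0.431 between them. The scripts were tested on simulated lists.

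The members and lists were chosen with earlier results of these data known. Regions given by position are those complete on one side, with no peak of any rank on the other, ordered by their worst rank, up to 4 per direction, and for muscle and testis only the leading ones are described. Tests of promoters, gene lists, cell type markers and named genes were not run, because gene starts could not be placed on the scaffolds of the files. Alternatives were other list lengths, ranking by fold, summit windows, libraries left out, permutation within animals and libraries as units.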

Additional observations from a re-analysis of the deposited data

How the results depend on the processing

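Leaving out liver gave differences of 0.199 in sharing, 359 bases in width and 21.3 percentage points in multi-summit intervals, and a single value per brain division gave 0.123, 427 bases and 31.8 points, or 0.0776, 336 bases and 20.3 points without liver. None of these designs allows a p under the threshold, so these p-values say nothing about stability. The other alternatives kept p under the threshold for all 3 differences. With the animals as a replicate block, the exact permutation p was 0.000139 for sharing, 0.000139 for width and 0.000278 for summits, and no call changed. This block permutes labels within each animal and so treats the libraries of a tissue as separate units. The same holds with libraries as units, so the smaller p-values of these settings are no measure of stability. Leaving out bat 1, bat 3 or the liver of bat 1 gave 0.228 to 0.264, 424 to 476 bases and 31.0 to 34.5 points.

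Counts of regions depended on the lists. Those in brain only (529) became 130 with the 20000 strongest intervals, 2668 with all deposited intervals and 1729 without cerebellum. Those in the periphery only (53) became 20, 325 and 95, and 371 without liver. Those in all lists (4838) became 2567 with 20000 intervals, 10619 with all and 11925 without liver. Brain-above regions (44) became 241 without liver, 113 without cerebellum and 31 with 20000 intervals. Periphery-above regions (69) became 412 without liver, 114 without cerebellum, 16 with 20000 intervals and 219 when ranked by fold, so that brain-above regions outnumbered the others with 20000 intervals only among these settings. With bat 1, bat 3 or the liver of bat 1 left out, the 5 counts ran from 564 to 1774, 148 to 426, 5364 to 11270, 115 to 515 and 237 to 547. Fewer lists to satisfy raise such counts by construction. Ranks over all deposited intervals gave no value, as those lists differ in length, and summit windows have no width or summit count. The promoter alternatives were not run. The settings without cerebellum, with 1 value per division, with matched numbers of tissues, without the liver of bat 1 alone and without liver with the replicate block were added after seeing the data. Read depth is unknown, so it cannot be said how far weaker enrichment limits the peripheral lists.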

Other observations

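The brain-only regions were spread unevenly over the scaffolds. The scaffold NW_023416312.1 was chosen after its values were seen, so these values carry no test. It makes up 5.65% of the length of the 18 scaffolds with the most intervals, judged by the last peak on each, and it held 1.63 to 3.09% of the 50000 intervals of brain libraries. Muscle had 1.52% and 2.26% of its intervals there, testis 1.06% and 0.972%, and liver 0.24% and 1.39%. Without liver, 42 of the 444 brain-complete regions on it (9.46%) were in no muscle or testis list, against 1.495 to 5.23% on the 17 others. The scaffold held 6.99% of the 529 brain-only regions and 0.434% of the regions in all 20 lists. For comparison, it held 1.56% of all merged regions and 2.52% of the regions complete in brain.

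All 6 peripheral libraries held a smaller share of the 444 regions than their median over the other scaffolds. Testis of bat 1 held 71.6% of the 444 regions, below all 17 other scaffolds (77.3 to 91.9%). Muscle of bat 1 held 84.5%, also below all others (87.9 to 94.7%), and liver of bat 1 held 5.18% against 13.3 to 38.8%. Muscle, testis and liver of bat 3 held 83.3%, 68.7% and 66.7%. On the other scaffolds muscle of bat 3 held 79.3 to 92.7% (median 86.1%), testis 68.7 to 88.9% (median 76.4%) and liver 63.5 to 78.8% (median 73.6%), so testis of bat 3 was level with its lowest other scaffold. The chromosome to which the scaffold belongs was not analysed here.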
